A study of Mus musculus with 12 samples.

Results

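The genes described here are 45 genes of the cell cycle and of DNA replication, followed through the colons of 4 groups of mice. They were taken by gene symbol from the 54532 gene rows of the deposited table and sorted by known role into 13 genes of DNA replication, 21 of mitosis, 8 of the passage from G1 to S phase and 3 inhibitors of cyclin-dependent kinases, and each of the 45 symbols matched 1 row. All 45 were among the 24102 genes tested, those with 3 or more libraries at an FPKM of 0.1 or above. Colon RNA was sequenced from mice with a floxed Tmem173 gene, which encodes the DNA-sensing adaptor STING. Tmem173fl/fl mice carried no Cre, and Tmem173iΔmye mice carried in addition Lyz2-CreERT2, a tamoxifen-dependent Cre recombinase driven by the Lyz2 gene of myeloid cells. Both genotypes had been given 5 tamoxifen injections, and in each genotype 3 libraries came from untreated mice and 3 from mice given dextran sulfate sodium (DSS) for 7 days, an agent that damages the epithelium of the colon. Replicates carried the numbers 1, 2 and 3, except for the colitic Tmem173iΔmye libraries, which carried 1, 2 and 5.

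In the healthy colon most division takes place in the crypts, where stem cells and transit-amplifying cells renew the epithelium. Cyclin D with its kinase, and then cyclin E with its kinase, release the transcription factor E2F1 from its brake, and E2F1 drives the genes that license and copy DNA in S phase. The mitotic genes are switched on later, in G2, when the MuvB complex with its partners works through the CHR element and the factor NF-Y through the CCAAT box, whereas in resting cells the DREAM complex keeps both sets of genes off. Cdkn1a (p21), Cdkn1b (p27) and Cdkn2c (p18) hold the kinases back. DSS colitis is an injury and repair model, and the comparison of replication genes with mitotic genes asked whether both arms of the cycle moved to the same extent.

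Promoters are shown because E2F letters were more frequent in the replication genes and CHR letters in the mitotic genes. Not every gene of a class held them. RefSeq promoters on GRCm38.p6, from 250 bases before to 50 after the start, were on hand for 35 of the 45 genes, in 39 promoters. Of the 11 replication genes among them, 6 held an E2F motif (TTTCCCGC, TTTGGCGC, TTTCGCGC or TTTGCCGC on either strand), namely Mcm3, Mcm5, Mcm6, Mcm7, Cdc6 and Cdt1, against 1 of 16 mitotic genes, Cdk1. A gene with several promoters was counted once, and over all 27025 genes of the table the share was 2.60% (2.26% of its 32851 promoters). A CHR motif (TTTGAA on either strand) lay in 12 of the 16 mitotic genes and in 1 of the 11 replication genes, Mcm2, against 20.2% of all genes (17.9% of all promoters). The CCAAT box on either strand was found in 15 of 16 mitotic and 8 of 11 replication genes, against 41.1% of all genes (37.4% of all promoters). The letters were searched as written, a match is a description, not a measured binding site.

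**Figure D1:**
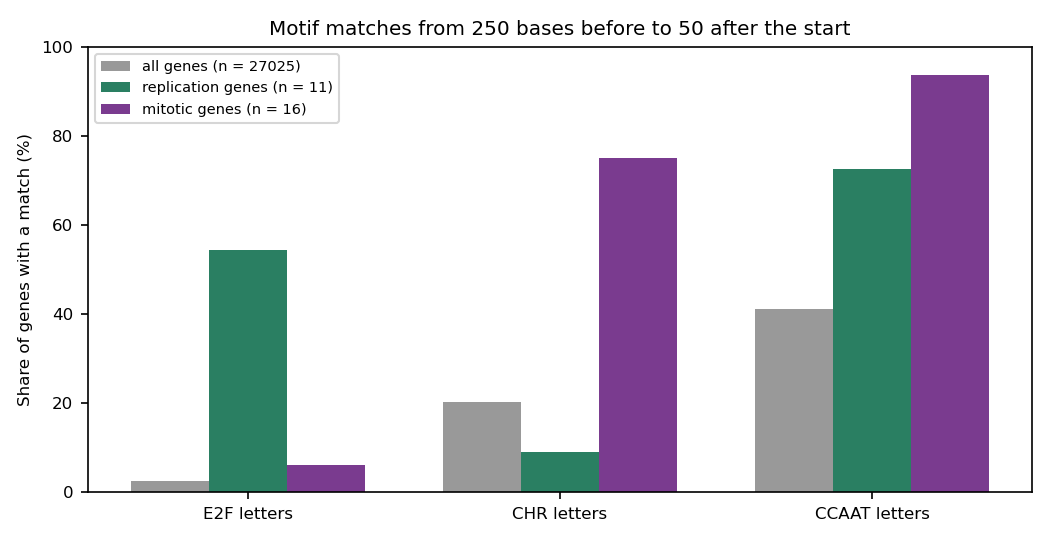
Share of genes (%) with at least 1 match to the E2F, CHR or CCAAT letters in a promoter, for all 27025 genes in the table, the 11 replication genes and the 16 mitotic genes with a promoter there. E2F letters stood in 54.5% of the replication genes and 6.25% of the mitotic genes, and CHR letters in 9.09% and 75%.

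The 160 bases before the start are given for 3 replication genes with E2F letters, for Cdk1, which held both kinds, and for 3 mitotic genes with CHR letters close to the start. Mcm5 lies at chr8:75109349-75109508 on the plus strand, Mcm6 at chr1:128359706-128359865 on the minus strand and Cdc6 at chr11:98907991-98908150 on the plus strand. Cdk1 lies at chr10:69352913-69353072 and Top2a at chr11:99024190-99024349, both on the minus strand, Ube2c at chr2:164769769-164769928 on the plus strand and Cdc20 at chr4:118437344-118437503 on the minus strand. Sequences run 5′ to 3′ on the gene's strand up to the base before the start. Capitals mark the E2F letters in Mcm5, Mcm6 and Cdc6, both E2F and CHR letters in Cdk1, and the CHR letters, read on one strand or the other, in Top2a, Ube2c and Cdc20. In Mcm5 and Mcm6 a run of 12 capitals is a pair of overlapping E2F matches on opposite strands.
Mcm5: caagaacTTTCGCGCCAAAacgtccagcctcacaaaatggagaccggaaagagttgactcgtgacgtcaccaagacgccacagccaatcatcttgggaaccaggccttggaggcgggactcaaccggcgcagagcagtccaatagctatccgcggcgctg
Mcm6: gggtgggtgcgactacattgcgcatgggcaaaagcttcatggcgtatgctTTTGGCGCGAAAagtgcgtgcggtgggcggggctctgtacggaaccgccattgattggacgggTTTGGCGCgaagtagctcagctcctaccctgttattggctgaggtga
Cdc6: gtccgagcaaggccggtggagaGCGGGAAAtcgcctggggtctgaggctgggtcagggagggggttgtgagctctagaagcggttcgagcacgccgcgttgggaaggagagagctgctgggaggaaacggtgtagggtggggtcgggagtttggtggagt
Cdk1: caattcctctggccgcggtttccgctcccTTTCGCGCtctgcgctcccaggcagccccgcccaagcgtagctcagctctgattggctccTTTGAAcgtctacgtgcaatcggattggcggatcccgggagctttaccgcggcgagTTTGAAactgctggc
Top2a: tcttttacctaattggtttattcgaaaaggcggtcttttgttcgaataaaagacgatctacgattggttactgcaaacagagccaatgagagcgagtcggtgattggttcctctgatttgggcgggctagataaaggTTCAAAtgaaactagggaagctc
Ube2c: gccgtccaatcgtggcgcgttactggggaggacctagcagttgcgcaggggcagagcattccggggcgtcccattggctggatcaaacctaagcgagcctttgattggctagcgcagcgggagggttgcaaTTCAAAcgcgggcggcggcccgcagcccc
Cdc20: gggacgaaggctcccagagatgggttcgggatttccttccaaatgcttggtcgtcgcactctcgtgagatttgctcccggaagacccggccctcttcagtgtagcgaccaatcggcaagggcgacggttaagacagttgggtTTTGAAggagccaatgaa

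Library totals ran from 13823237 to 18718915 counts, and the lowest count of any of the 45 genes in any library was 29, for Gins2. Tmem173 itself was read at 24.5, 14.3 and 22.9 CPM in untreated Tmem173fl/fl and 17.2, 14.6 and 21.3 CPM in untreated Tmem173iΔmye libraries, and at 42.4, 44 and 37.6 CPM (counts scaled to library size with TMM factors) in colitic Tmem173fl/fl libraries and at 47.8, 23.8 and 31.1 CPM in colitic Tmem173iΔmye libraries, which overlap (log2 fold change -0.28 ± 0.26, edgeR adjusted p = 0.602). The genotype was therefore taken from the labels, and Tmem173 counts in whole colon gave no check of it. Replicate 5 of the colitic Tmem173iΔmye libraries stood apart on the second principal component of all tested genes, at -78.6 against -15.7 to 20.5 in the other libraries. It was also the only colitic library with a high level of Xist (1451 CPM, with at most 0.545 CPM in the other 5), as in replicate 3 of each untreated group. Ddx3y, a gene of the Y chromosome, read 0 CPM in these high-Xist libraries and 60.85 to 105.5 CPM in all others. By these genes the high-Xist libraries came from female mice and the others from male mice. On the first component, where untreated libraries lay from -61.5 to -41.8 and the other 5 colitic libraries from 11.6 to 101.5, replicate 5 lay between them at -22.9. Its neutrophil marker level (mean log2(CPM + 0.5)) was the lowest of the colitic libraries, at 1.66, with at least 3.32 in replicates 1 and 2, 5.25 to 5.84 in colitic Tmem173fl/fl libraries and -0.39 to 0.57 in untreated ones. The part of these differences in its levels of cell cycle genes was not tested, and counts and medians of those genes are given with and without it below. Pancreatic enzyme genes, foreign to the colon, summed to 486 to 7415 CPM in colitic Tmem173fl/fl libraries and to 109.6 to 8907 CPM in colitic Tmem173iΔmye libraries. In untreated libraries they summed to 230, 102.5 and 2886 CPM (Tmem173fl/fl) and to 117, 1653 and 176.1 CPM (Tmem173iΔmye).

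All 45 genes were expressed in the untreated colon. On the FPKM scale, which allows levels to be compared between genes because it is corrected for gene length, the replication genes of untreated Tmem173fl/fl libraries were headed by Pcna, the sliding clamp of the DNA polymerases, at 39 ± 7.58 (SD, n = 3), followed by Mcm6, a subunit of the replicative helicase, at 22.5 ± 2.15. Cdc6 and Gins2, which help to load and to activate that helicase, were the lowest at 2.02 ± 0.306 and 1.92 ± 0.126. Among the mitotic genes, the kinase Plk1 led at 44.9 ± 3.97, Mki67, the gene of the Ki-67 antigen, followed at 37.8 ± 5.16, and Top2a, the topoisomerase that untangles sister chromatids, came next at 33.4 ± 5.01. These neighbouring mitotic levels overlapped within their SDs. Ccnd2 at 43.5 ± 4.23 exceeded Ccnd1 at 20.4 ± 2.85 and Ccnd3 at 8.18 ± 1.22 among the D cyclins by more than those SDs, and Cdkn1a had the highest FPKM of all 45 genes, at 77.3 ± 11.8.

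In Tmem173fl/fl mice, DSS lowered nearly the whole set. The question here was how colitis changed these genes in mice with intact STING. With edgeR's quasi-likelihood test and Benjamini-Hochberg adjustment over all tested genes, 34 of the 45 genes were called lower (adjusted p under 0.05 and a log2 fold change of -1 or less), 0 were called higher and 11 were not called, whereas 7.61% of all tested genes were called lower. At the adjusted p alone, 39 genes were lower, against 16% of all tested genes. The groups did not overlap in 43 of the 45, again all lower in colitis, against 25.4% of all tested genes. The median log2 fold change was -1.50, beside 0.03 over all tested genes. In bulk tissue, fewer dividing cells and less RNA of these genes per cell cannot be told apart.

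All 13 replication genes were lower at the adjusted p, 10 of them past the fold threshold, with log2 fold changes from -1.60 to -0.72 and a median of -1.05. Mcm5 read 51.4, 58.8 and 61.6 CPM in the untreated Tmem173fl/fl libraries and 21, 24.1 and 14.4 CPM in the colitic ones, and the groups were far apart (log2 fold change -1.46 ± 0.19 (SE), adjusted p = 0.000291). Mcm5 and Mcm2 are subunits of the MCM helicase. Mcm2 read 45.7, 56.5 and 51.7 CPM in the untreated Tmem173fl/fl libraries and 23.7, 30.5 and 19 CPM in the colitic ones, a decrease that just missed the fold threshold (log2 fold change -0.997 ± 0.18 (SE), adjusted p = 0.00213). Under several alternatives Mcm2 was called, among them DESeq2 (-1.01) and the fit without replicate 2 of the colitic group (-1.21). Among all 6 MCM subunits the fold changes ran from -1.46 to -0.72, with Mcm4 as the least lowered of all replication genes.

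Cdc6 read 9.01, 11.3 and 12.1 CPM in the untreated Tmem173fl/fl libraries and 3.58, 4.54 and 2.45 CPM in the colitic ones (log2 fold change -1.54 ± 0.27 (SE), adjusted p = 0.00167). Pcna read 94.2, 78.5 and 115 CPM in the untreated Tmem173fl/fl libraries and 45.2, 49.2 and 42.1 CPM in the colitic ones (log2 fold change -1.01 ± 0.16 (SE), adjusted p = 0.00101). In both genes every colitic library lay below every untreated one. The largest fall of the class was that of Rrm1, the large subunit of ribonucleotide reductase, which makes deoxynucleotides: it read 92.9, 107 and 125 CPM untreated and 38.5, 38.1 and 25 CPM in colitis (log2 fold change -1.60 ± 0.19 (SE), adjusted p = 0.000159). Its partner subunit Rrm2 fell less and varied more between colitic libraries, from 39.3, 33.4 and 46.9 CPM to 17.8, 26.7 and 10.8 CPM (log2 fold change -1.04 ± 0.29 (SE), adjusted p = 0.0183). The call of Rrm2 was lost with limma (-1.13, adjusted p = 0.0601). It was also lost without replicate 3 of the untreated group (-0.895, adjusted p = 0.0789) or of the colitic one (-0.789, short of the fold threshold). The call of Pcna was lost with the replicate block (-0.989). Without replicate 3 of the untreated group (-0.844) or of the colitic one (-0.972) Pcna was not called either. Tyms, the thymidylate synthase, had a log2 fold change of -1.50 ± 0.18, close to that of Rrm1, while Cdt1, which loads the helicase together with Cdc6, stood at -0.75 ± 0.17.

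The mitotic genes were lowered more. All 21 were lower at the adjusted p and 20 were called, with log2 fold changes from -2.54 to -0.85 and a median of -1.94. The largest fall was that of Bub1, a kinase of the spindle checkpoint, from 23.4, 31.4 and 42.3 CPM to 6.88, 5.68 and 3.34 CPM (log2 fold change -2.54 ± 0.30 (SE), adjusted p = 0.000148), followed by Ccna2, the cyclin A that carries cells through S phase and G2, at -2.47 ± 0.25. Top2a read 271, 298 and 358 CPM in the untreated Tmem173fl/fl libraries and 57.6, 73 and 32.5 CPM in the colitic ones (log2 fold change -2.44 ± 0.27 (SE), adjusted p = 0.000104). Mki67 read 331, 416 and 425 CPM in the untreated Tmem173fl/fl libraries and 114, 143 and 60.1 CPM in the colitic ones (log2 fold change -1.81 ± 0.28 (SE), adjusted p = 0.000766). Replicate 3 was the lowest colitic Tmem173fl/fl library in 20 of the 21 mitotic genes and in 12 of the 13 replication genes.

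Cdk1, the kinase that starts mitosis, and its partner Ccnb1 (cyclin B1) moved together. Cdk1 read 45.1, 37 and 51.6 CPM in the untreated Tmem173fl/fl libraries and 12.6, 13.3 and 10.3 CPM in the colitic ones (log2 fold change -1.81 ± 0.18 (SE), adjusted p = 5.08e-05). Ccnb1 read 35.8, 48.3 and 59.4 CPM in the untreated Tmem173fl/fl libraries and 12.2, 12.7 and 6.47 CPM in the colitic ones (log2 fold change -2.12 ± 0.28 (SE), adjusted p = 0.000261). Birc5 (survivin), a member of the chromosomal passenger complex with Aurkb, went from 49.2, 40.5 and 52.5 CPM to 11.8, 12.4 and 7.49 CPM (log2 fold change -2.09 ± 0.21 (SE), adjusted p = 5.63e-05). In all 3 genes the colitic libraries lay far below the untreated ones, and replicate 3 was the lowest.

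Plk1 was the exception. Plk1 read 98.2, 112 and 94.2 CPM in the untreated Tmem173fl/fl libraries and 50.3, 45.5 and 64.4 CPM in the colitic ones, where replicate 3 was the highest colitic library (log2 fold change -0.85 ± 0.15 (SE), adjusted p = 0.00180). It passed the adjusted p but missed the fold threshold, and it was the only mitotic gene to do so.

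Set side by side, the median of the mitotic genes lay 0.89 log2 units below that of the replication genes, and 17 of the 21 mitotic genes fell further than Rrm1, the most lowered replication gene. The same order was seen library by library. The mean log2(CPM + 0.5) of the replication genes minus that of the mitotic genes was -0.31, -0.40 and -0.38 in the untreated Tmem173fl/fl libraries and 0.26, 0.47 and 0.51 in the colitic ones. The groups did not overlap, and the sign changed. The difference of the medians stayed between 0.81 and 0.97 when any 1 library was left out. The mitotic median was -1.92 when Mki67, Top2a and Ccna2, which are also expressed in S phase, were removed from the class. No test was applied to a score over chosen genes.

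**Figure D2:**
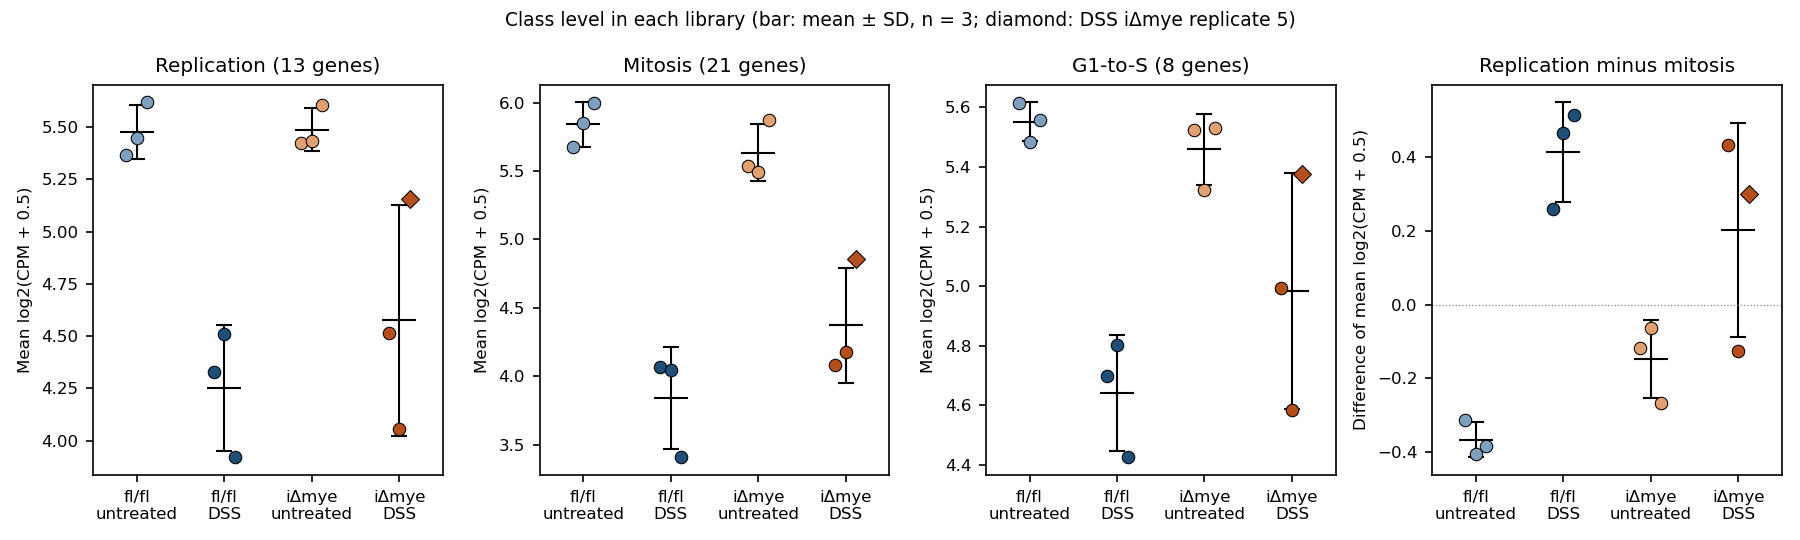
Mean log2(CPM + 0.5) over the replication, mitosis and G1-to-S genes in each library, and the difference of the first 2; points are libraries, bars are the mean ± SD of 3 libraries, and the diamond is replicate 5 of the colitic Tmem173iΔmye group. In colitis the mitotic level of Tmem173fl/fl libraries dropped to between 3.41 and 4.07 from at least 5.68, and the replication level to between 3.92 and 4.51 from at least 5.36.

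The genes of the G1-to-S passage did not move as one. Ccnd1, Ccnd2, Ccne2 and E2f1 were called lower, whereas Ccnd3, Cdk4, Cdk2 and Ccne1 were not called. Ccnd1 read 83.4, 104 and 108 CPM in the untreated Tmem173fl/fl libraries and 48.9, 41.7 and 41.3 CPM in the colitic ones (log2 fold change -1.10 ± 0.15 (SE), adjusted p = 0.000298). Ccnd2 read 445, 373 and 440.2 CPM in the untreated Tmem173fl/fl libraries and 124, 169 and 134 CPM in the colitic ones (log2 fold change -1.49 ± 0.17 (SE), adjusted p = 0.00011). Their sister cyclin Ccnd3 read 81, 79.3 and 60.8 CPM untreated and 85.2, 80.5 and 74.4 CPM in colitis, where the groups overlapped, and was the only one of the 45 genes with a positive estimate (log2 fold change 0.19 ± 0.14 (SE), adjusted p = 0.332). D cyclins partner with the kinase Cdk4, which read 73.5, 76.6 and 66.5 CPM and 65.2, 60.1 and 54.1 CPM (log2 fold change -0.20 ± 0.13 (SE), adjusted p = 0.255).

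Ccne2, 1 of the cyclin E genes, had the largest fall of this class, from 16.4, 13.7 and 16.9 CPM to 4.23, 3.83 and 3.61 CPM (log2 fold change -1.94 ± 0.20 (SE), adjusted p = 6.86e-05). The other cyclin E gene, Ccne1, read 13.9, 10.4 and 13.2 CPM and 6.61, 9.14 and 3.81 CPM, with no overlap but an adjusted p of 0.0502 for a log2 fold change of -0.86 ± 0.30. E2f1 itself went from 13.7, 11.5 and 11.6 CPM to 4.99, 6.87 and 3.20 CPM (log2 fold change -1.21 ± 0.28 (SE), adjusted p = 0.00721). Without replicate 3 of the colitic group it was just short of the fold threshold (-0.996). The kinase of cyclin E, Cdk2, changed by -0.27 ± 0.14 (adjusted p = 0.157).

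None of the 3 inhibitors was higher in colitis. Cdkn1a, a target of p53, read 333, 258 and 255 CPM untreated and 142, 135 and 187 CPM in colitis, lower without overlap but short of the fold threshold (log2 fold change -0.80 ± 0.18 (SE), adjusted p = 0.00614). Cdkn1b read 94.1, 116 and 122 CPM and 90.5, 108 and 89.6 CPM (log2 fold change -0.14 ± 0.15 (SE), adjusted p = 0.523), and the groups overlapped. Cdkn2c read 19.8, 19.2 and 19.9 CPM and 16.1, 16.9 and 10.5 CPM (log2 fold change -0.36 ± 0.20 (SE), adjusted p = 0.207).

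**Figure D3:**
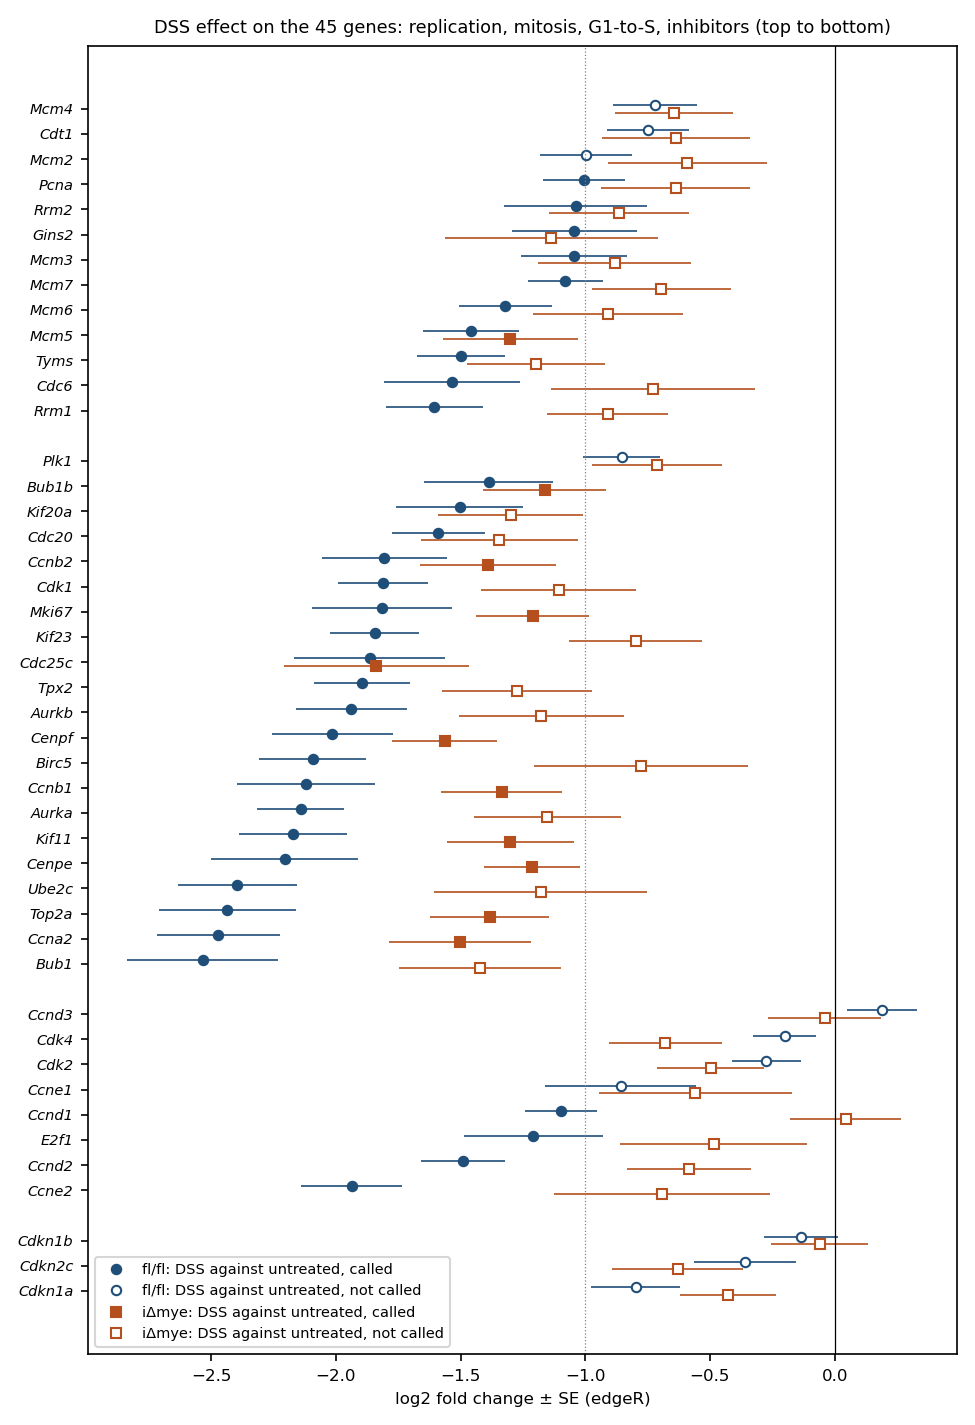
Log2 fold change ± SE (edgeR) of DSS against untreated for each of the 45 genes, in Tmem173fl/fl (circles) and Tmem173iΔmye (squares) mice, ordered within the 4 classes; filled symbols were called and the dotted line is at -1. Of the Tmem173fl/fl estimates 34 are filled and of the Tmem173iΔmye estimates 11.

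Other genes of the same pathways, from lists of known function, were counted in the same way in Tmem173fl/fl mice, beside the 7.61% of all tested genes called lower. Of 40 further replication genes, 20 were called lower and 0 higher, with a median log2 fold change of -1.01, and the largest falls were those of Pola1, the catalytic subunit of DNA polymerase alpha (-2.02 ± 0.28, adjusted p = 0.000389), and Uhrf1, which maintains DNA methylation at the fork (-1.85 ± 0.22, adjusted p = 0.000168). Of 42 further mitotic genes, 41 were called lower, with a median of -1.99, led by the kinases Pbk (-3.33 ± 0.34, adjusted p = 5.39e-05) and Melk (-3.03 ± 0.23, adjusted p = 9.43e-06). The mitotic median was again the lower. Of 24 cell cycle regulators, 11 were called lower, including the repressor E2f8 (-2.22 ± 0.21) and the checkpoint kinase Chek1 (-1.98 ± 0.34).

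Of 5 further inhibitors of cyclin-dependent kinases, Cdkn1c (p57) was called higher, at 1.36 ± 0.21 (adjusted p = 0.000868), and Cdkn3, a phosphatase whose expression follows mitosis, was called lower, at -2.55 ± 0.25. Of 12 p53 targets, 2 were called higher and 0 lower, a share close to the 14.9% of all tested genes called higher, namely Plk2 (2.77 ± 0.28, adjusted p = 5.18e-05) and Phlda3 (1.23 ± 0.23, adjusted p = 0.00222).

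Markers of other cell types moved with these genes. Of 11 epithelial markers, 6 were called lower in colitic Tmem173fl/fl mice, against 7.61% of all tested genes (median -1.01), and their summed level was 15179 to 19087 CPM untreated and 6015 to 10348 CPM in colitis. Of 9 crypt and stem cell genes, 6 were called lower and 1 higher, with Ascl2 at -3.96 ± 0.42 and the stem cell receptor Lgr5 at -3.70 ± 0.50. All 8 neutrophil markers were called higher, against 14.9% of all tested genes, with sums of 5.14 to 10.2 CPM untreated and 375 to 561 CPM in colitis. All 6 fibroblast markers were called higher too, with sums of 1179 to 1379 CPM and 7970.5 to 10150.4 CPM. Further, 6 of 8 monocyte and macrophage markers, 6 of 6 endothelial and 6 of 7 erythroid markers were called higher, and of 7 germinal centre markers 2 were called higher and 1 lower. At the same thresholds no T cell, B cell, smooth muscle or pancreas marker was called. Measured against the epithelial markers of the same library, the mitotic genes (mean log2 level minus that of the epithelial markers) stood at -4.54, -4.33 and -3.90 untreated and -4.97, -4.58 and -5.99 in colitis, lower without overlap. The replication genes stood at -4.85, -4.74 and -4.28 and -4.71, -4.11 and -5.48, which overlapped. The part of a changed cell mix in the falls was not tested beyond these values.

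In Tmem173iΔmye mice the direction was the same and fewer genes were called. DSS lowered 11 of the 45 genes past both thresholds, against 0.597% of all tested genes, and raised 0. These were Mcm5 and 10 mitotic genes (Ccna2, Ccnb1, Ccnb2, Cdc25c, Bub1b, Kif11, Cenpe, Cenpf, Top2a and Mki67). The estimates of 44 genes were negative, and in 33 the groups did not overlap, all lower, against 9.41% of all tested genes. Without replicate 5, 42 genes did not overlap, all lower, against 18.5% of all tested genes. The count of calls depended on replicate 5 as well: without it 30 genes were called lower, 9 of replication, 20 of mitosis and 1 of G1-to-S, against 2.15% of all tested genes, whereas leaving out any other library of this comparison left from 0 to 2. Without colitic replicate 1 or colitic replicate 2 the count was 2 each, beside 52 and 98 of all tested genes called lower. The count also depended on the method. With limma 0 of the 45 genes were called, beside 11 of all tested genes called lower, and with DESeq2 19, beside 342.

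Mcm5 read 61.5, 54.6 and 65 CPM in untreated and 23.6, 15.9 and 34.2 CPM in colitic Tmem173iΔmye libraries (log2 fold change -1.30 ± 0.27 (SE), adjusted p = 0.0372). It had the largest fall among the replication genes, whose median was -0.87, and Mcm2 had the estimate nearest to 0, with 48.8, 44.7 and 56.8 CPM untreated and 35.2, 17.2 and 47.6 CPM in colitis (log2 fold change -0.59 ± 0.32 (SE), adjusted p = 0.417). Pcna read 102, 119 and 112 CPM and 49, 53.3 and 112 CPM, the last value being that of replicate 5, which lay within the untreated range (log2 fold change -0.64 ± 0.30 (SE), adjusted p = 0.341). Rrm2 read 42, 42 and 39.1 CPM and 23.2, 13.5 and 31 CPM (log2 fold change -0.87 ± 0.28 (SE), adjusted p = 0.165), and Cdc6 11.7, 8.56 and 12.8 CPM and 5.92, 3.30 and 10.7 CPM (log2 fold change -0.73 ± 0.41 (SE), adjusted p = 0.438). Without replicate 5, Pcna at -1.09 (adjusted p = 0.00581) and Rrm2 at -1.13 (adjusted p = 0.0210) were called. Both were also called with the replicate block, Pcna at -1.11 (adjusted p = 0.00642) and Rrm2 at -1.25 (adjusted p = 0.00509). Colitic replicate 5 and untreated replicate 3 have no partner of their number there. Neither enters the block's DSS estimate, which rests on replicates 1 and 2.

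Replicate 5 was the highest of the 3 colitic Tmem173iΔmye libraries in 12 of the 13 replication genes and in 19 of the 21 mitotic genes. Replicate 3 of each untreated group, which shared its high Xist level, was likewise the highest of its group in 18 of the 21 mitotic genes, and in 11 (Tmem173fl/fl) and 8 (Tmem173iΔmye) of the 13 replication genes. The colitic Tmem173fl/fl group held no library with a high Xist level. The comparisons that include that group were therefore unbalanced in sex, as read from Xist and Ddx3y. The part of sex in the results was not tested. The other colitic Tmem173iΔmye libraries differed by class. Replicate 2 was the lowest in 10 of the 13 replication genes but in only 9 of the 21 mitotic genes, where replicate 1 was the lowest in 11. The class level (mean log2(CPM + 0.5)) of the replication genes was 4.52, 4.06 and 5.15 for replicates 1, 2 and 5, and that of the mitotic genes was 4.08, 4.18 and 4.85.

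Among the mitotic genes, with a median of -1.27, the largest fall was that of Cdc25c, the phosphatase that activates Cdk1, from 5.58, 8.98 and 11.5 CPM to 2.57, 2.86 and 1.88 CPM (log2 fold change -1.84 ± 0.37 (SE), adjusted p = 0.0335). Top2a read 271, 231 and 274 CPM and 86.6, 77.8 and 134 CPM (log2 fold change -1.38 ± 0.24 (SE), adjusted p = 0.0185). Mki67 read 361, 275 and 376 CPM and 140.5, 119 and 179 CPM (log2 fold change -1.21 ± 0.23 (SE), adjusted p = 0.0260). In these 3 genes no colitic library reached an untreated one.

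Ccnb1 read 33.1, 36.1 and 47.2 CPM and 11.9, 16.1 and 18.2 CPM (log2 fold change -1.33 ± 0.24 (SE), adjusted p = 0.0225). Cdk1 read 37.3, 40.7 and 47.3 CPM and 12.4, 15.7 and 30.1 CPM without overlap but was not called (log2 fold change -1.11 ± 0.31 (SE), adjusted p = 0.111). Birc5 read 33.7, 38.6 and 42 CPM and 12, 12.6 and 42.2 CPM, and here replicate 5 was at the untreated level (log2 fold change -0.78 ± 0.43 (SE), adjusted p = 0.429). Without replicate 5 both were called, Cdk1 at -1.54 (adjusted p = 0.00199) and Birc5 at -1.60 (adjusted p = 0.00143). Cdk1 was also called with all libraries by DESeq2 (adjusted p = 0.0162), without the filter on low values (0.0188), in 1 fit of all 12 libraries (0.0308) and with the pancreas marker level as a covariate (0.0381). The replicate block called both genes, Cdk1 at -1.48 (adjusted p = 0.000788) and Birc5 at -1.55 (adjusted p = 0.000519). That block takes colitic replicate 5 and untreated replicate 3, which have no partner of their number, out of the DSS estimate. It is therefore not separate from the fit without replicate 5. Plk1 again had the mitotic estimate nearest to 0, with 113, 88.9 and 111 CPM and 40.8, 83.9 and 66.6 CPM (log2 fold change -0.71 ± 0.26 (SE), adjusted p = 0.215).

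The median of the mitotic genes lay 0.41 log2 units below that of the replication genes, against 0.89 in Tmem173fl/fl mice, a difference that was not tested as such. The value of 0.41 ranged from 0.26 without replicate 3 of the untreated Tmem173iΔmye group to 0.55 without replicate 2 of the colitic one. Without replicate 5 the medians were -1.19 for replication and -1.59 for mitosis. Library by library, the level of the replication genes minus that of the mitotic genes was -0.12, -0.06 and -0.27 in untreated and 0.43, -0.12 and 0.30 in colitic Tmem173iΔmye libraries. Replicate 2 alone stayed among the untreated values. Of 42 further mitotic genes 15 were called lower, against 0.597% of all tested genes, and of 40 further replication genes 0 (22 at an unadjusted p under 0.05, against 15.6% of all tested genes), with medians of -1.18 and -0.72. Without replicate 5 these counts were 39 and 15, against 2.15% of all tested genes, with medians of -1.50 and -0.98. The further mitotic genes with the largest falls were Iqgap3, a scaffold protein (-1.65 ± 0.27, adjusted p = 0.0157), and the kinesin Kif18b (-1.58 ± 0.30, adjusted p = 0.0270). Of 24 regulators, 3 were called lower (6 without replicate 5), led by the mitotic inhibitor kinase Wee1 (-1.52 ± 0.22) and E2f8 (-1.29 ± 0.26).

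None of the 8 G1-to-S genes and none of the 3 inhibitors was called in Tmem173iΔmye mice. Ccnd1 read 95, 73.6 and 108 CPM untreated and 96.6, 113 and 75.6 CPM in colitis, overlapping and with the only positive estimate among the 45 genes (log2 fold change 0.04 ± 0.22 (SE), adjusted p = 0.954). Ccnd2 read 323, 284 and 462 CPM and 207, 209.7 and 298 CPM (log2 fold change -0.59 ± 0.25 (SE), adjusted p = 0.289), and Ccnd3 70.9, 57.2 and 74.6 CPM and 79.3, 47.4 and 71 CPM (log2 fold change -0.04 ± 0.23 (SE), adjusted p = 0.962). Ccne2 had the lowest estimate of the class, with 17.5, 16.5 and 9.44 CPM and 6.49, 4.79 and 15.6 CPM (log2 fold change -0.69 ± 0.43 (SE), adjusted p = 0.497), with replicate 5 at the untreated level.

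Ccne1 read 12.1, 10.7 and 11.1 CPM and 7.34, 3.67 and 12 CPM (log2 fold change -0.56 ± 0.39 (SE), adjusted p = 0.547) and E2f1 11.7, 9.58 and 12.4 CPM and 7.20, 4.29 and 12.6 CPM (log2 fold change -0.49 ± 0.38 (SE), adjusted p = 0.593), both reaching the untreated range through replicate 5. Cdkn1a read 246, 319 and 299 CPM and 214, 207 and 223 CPM (log2 fold change -0.43 ± 0.19 (SE), adjusted p = 0.317). Cdkn1b read 102, 108 and 122 CPM and 86.7, 115 and 117 CPM (log2 fold change -0.06 ± 0.20 (SE), adjusted p = 0.921), and Cdkn2c, with the lowest estimate of the inhibitors, 18, 17.3 and 24.1 CPM and 10.7, 11.3 and 16.4 CPM (log2 fold change -0.63 ± 0.26 (SE), adjusted p = 0.283). Of the 11 epithelial markers, 0 were called in this genotype (median -0.40), and of the 8 neutrophil markers, 5 were called higher, against 1.48% of all tested genes, with a sum of 51.9 to 113 CPM in colitis. Of 9 crypt and stem cell genes, 3 were called lower, against 0.597% of all tested genes (median -0.81), led by Lgr5 at -3.23 ± 0.55 and Axin2, a target of Wnt signalling, at -2.47 ± 0.37, and their sum was 449.7 to 622 CPM untreated and 315 to 399 CPM in colitis. Of 8 monocyte and macrophage markers 2 were called higher, of 6 fibroblast markers 1 and of 6 endothelial markers 0. Without replicate 5, 5 crypt and stem cell genes and 0 epithelial markers were called lower, against 2.15% of all tested genes. In that fit 7 neutrophil, 5 monocyte and macrophage, 5 endothelial and 4 fibroblast markers were called higher, against 3.95%. The part of these cell types in the falls was not tested.

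**Figure D4:**
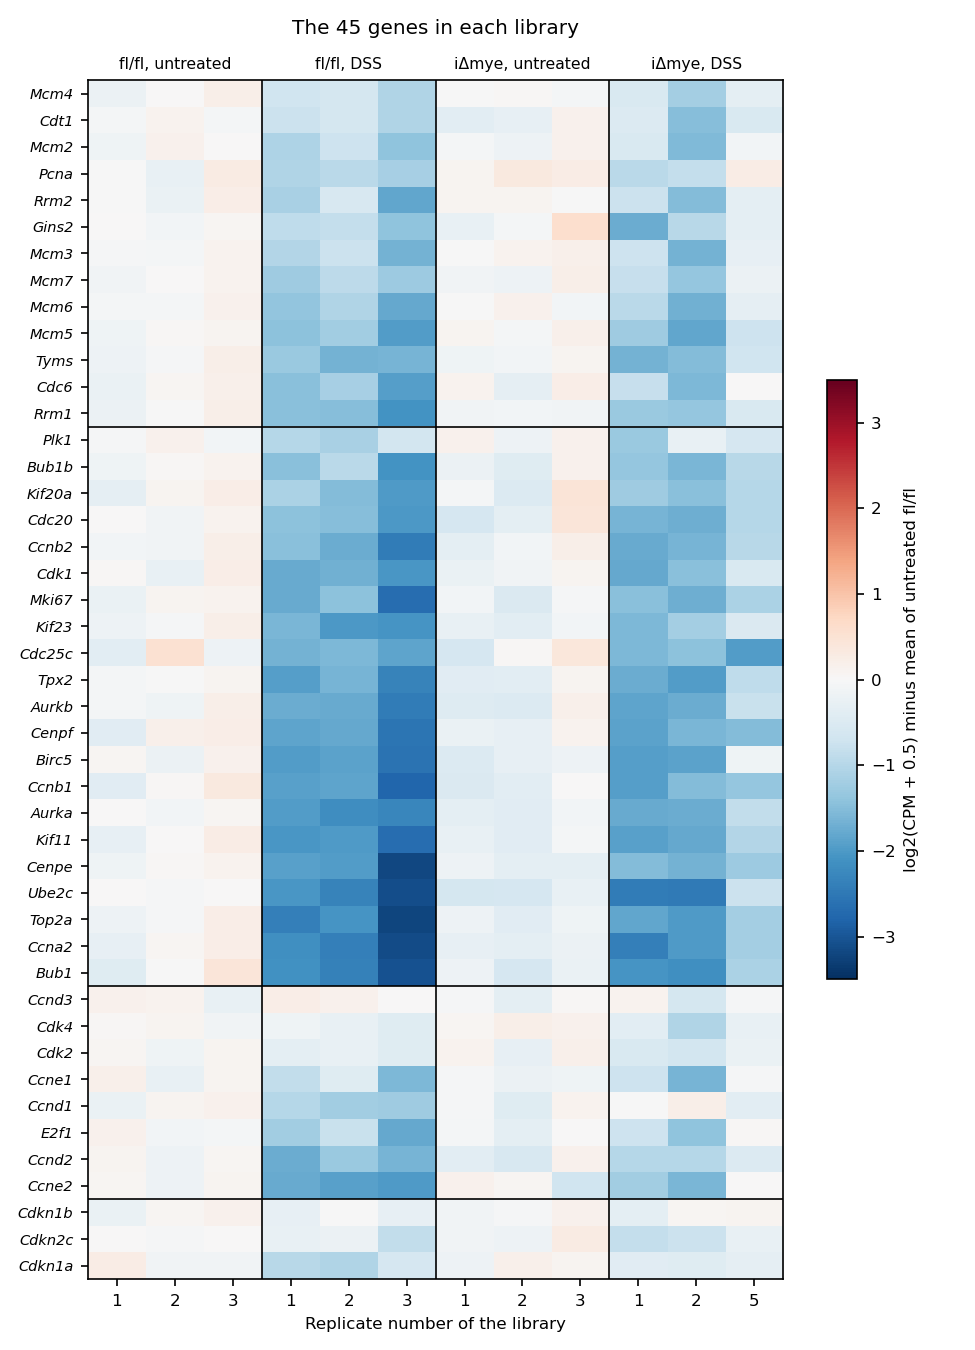
Level of the 45 genes (rows, in the 4 classes separated by lines) in the 12 libraries (columns, by group and replicate number), as log2(CPM + 0.5) minus the mean of the untreated Tmem173fl/fl libraries. The colitic columns are blue for nearly all replication and mitotic genes, deepest for the mitotic genes in replicate 3 of Tmem173fl/fl, and palest in replicate 5 of Tmem173iΔmye.

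Without DSS, no difference between the genotypes was detected in any single one of these genes with 3 against 3 libraries. With edgeR 0 of the 45 genes were called, as was 0% of all tested genes, and DESeq2 and limma also called 0. An unadjusted p under 0.05 was reached by 1 of the 45, against 2.99% of all tested genes. It was Ube2c, an enzyme that tags mitotic proteins for destruction, which read 76.7, 74.3 and 76.6 CPM in Tmem173fl/fl and 49, 50.1 and 63.5 CPM in Tmem173iΔmye libraries (log2 fold change -0.48 ± 0.16 (SE), adjusted p = 1). It was also the lowest estimate of the mitotic genes, 19 of which had negative estimates (median -0.23), and Plk1 had the highest estimate at 0.05 ± 0.15. The replication genes had a median of 0.02, between Cdt1 at -0.15 ± 0.18 and Pcna at 0.22 ± 0.16. The replication median lay 0.244 above the mitotic one, and 0.172 to 0.235 above it when any 1 library was left out. By library, the replication level minus the mitotic level was -0.31, -0.40 and -0.38 in Tmem173fl/fl. It was -0.12, -0.06 and -0.27 in Tmem173iΔmye, without overlap. This difference was not tested. The G1-to-S genes ran from Ccnd2 at -0.23 ± 0.18 to Cdk4 at 0.15 ± 0.14, and the inhibitors from Cdkn1b at 0.0049 to Cdkn1a at 0.04 ± 0.16. Of the 19 genes given in full in this report, the estimates ran from Birc5 at -0.31 ± 0.16 to Pcna, and the adjusted p was 1 for each.

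With DSS, Ccnd1 was the 1 gene of the 45 that was called between genotypes. It read 48.9, 41.7 and 41.3 CPM in colitic Tmem173fl/fl and 96.6, 113 and 75.6 CPM in colitic Tmem173iΔmye libraries, and the groups did not overlap (log2 fold change 1.10 ± 0.19 (SE), adjusted p = 0.0267, edgeR). Of the colitic Tmem173iΔmye libraries, replicates 1 and 5 lay within the range of the untreated libraries and replicate 2 above it. Of all tested genes 0.822% were called higher. The call rested on few libraries: the log2 fold change stayed between 0.98 and 1.24 in every alternative tried, but the adjusted p rose to 0.107 without replicate 1 of the colitic Tmem173fl/fl libraries, 0.0938 without replicate 2, 0.0814 without replicate 3 and 0.0856 without replicate 2 of the colitic Tmem173iΔmye libraries, and was 0.102 with limma. Without replicate 5 the value was 1.24, with an adjusted p of 0.0138.

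The other D cyclins were not called. Ccnd2 read 124, 169 and 134 CPM in Tmem173fl/fl and 207, 209.7 and 298 CPM in Tmem173iΔmye libraries with DSS, higher without overlap (log2 fold change 0.73 ± 0.22 (SE), adjusted p = 0.113), and Ccnd3 read 85.2, 80.5 and 74.4 CPM and 79.3, 47.4 and 71 CPM (log2 fold change -0.28 ± 0.22 (SE), adjusted p = 0.504), the lowest estimate of the class. Ccne2 had the highest estimate of all 45 genes, from 4.23, 3.83 and 3.61 CPM to 6.49, 4.79 and 15.6 CPM (log2 fold change 1.2 ± 0.44 (SE), adjusted p = 0.178), where replicate 5 was far above the other libraries. The values of Ccne1 and E2f1 overlapped between genotypes (0.23 ± 0.47 and 0.67 ± 0.44, adjusted p = 0.832 and 0.440). Cdkn1a was higher without overlap, at 142, 135 and 187 CPM against 214, 207 and 223 CPM (log2 fold change 0.47 ± 0.19 (SE), adjusted p = 0.217), while Cdkn1b and Cdkn2c differed by 0.14 ± 0.18 and -0.19 ± 0.28.

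**Figure D5:**
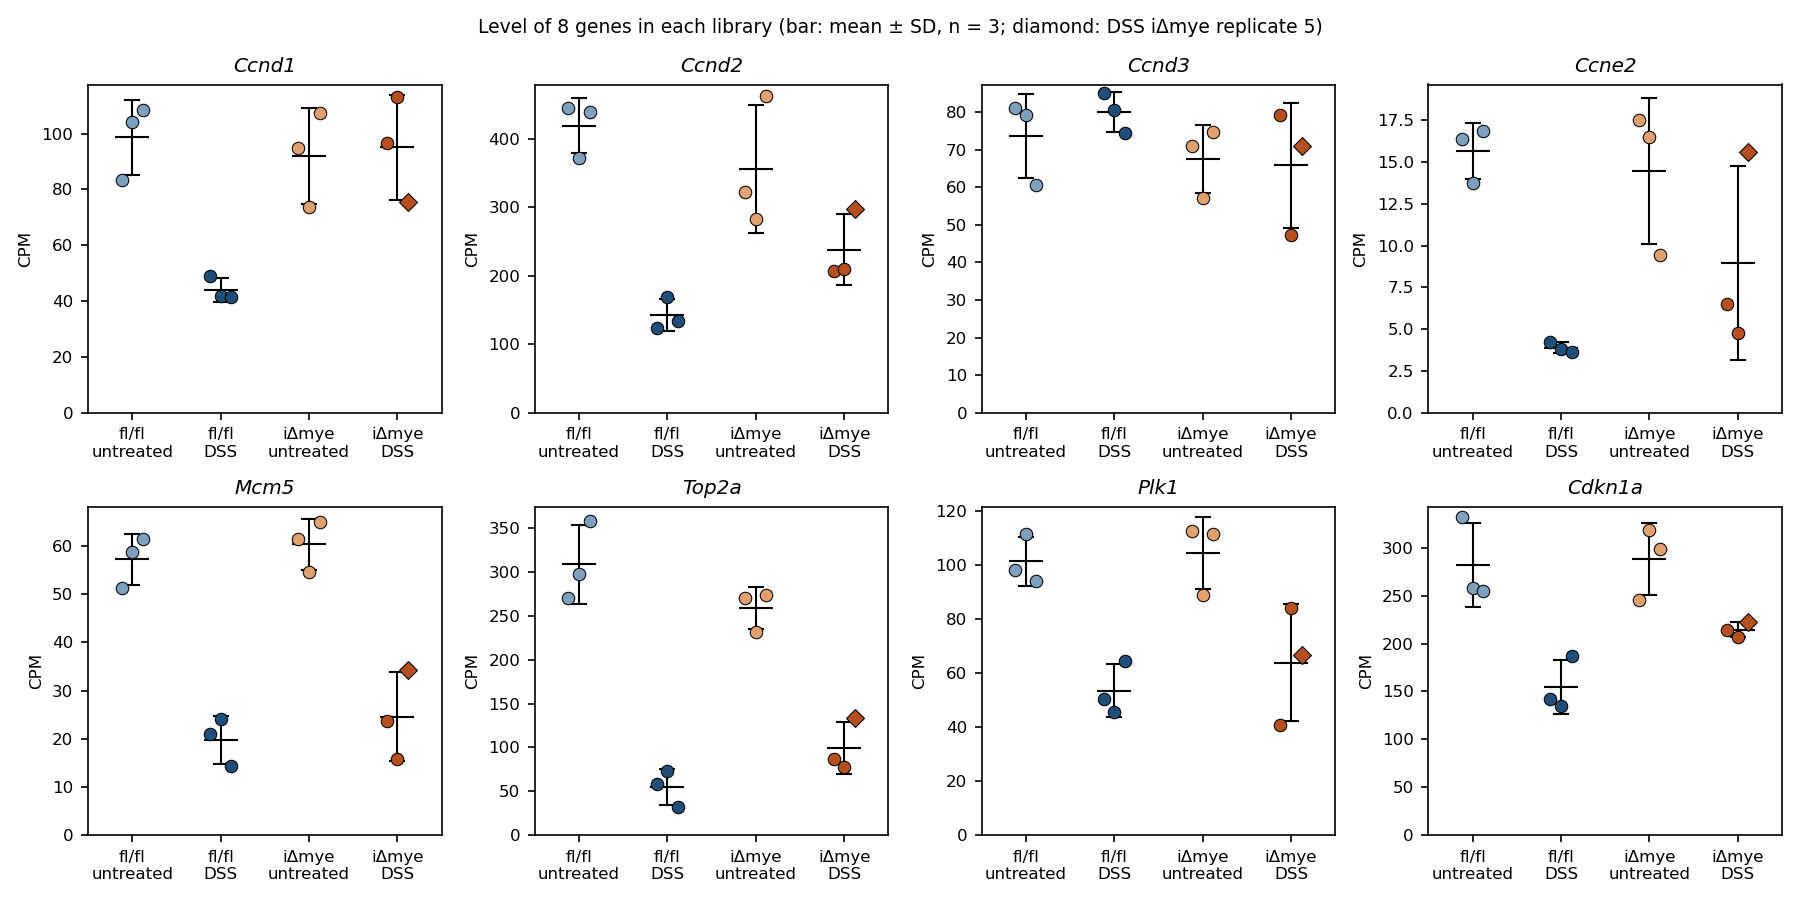
CPM of 8 genes in each library, with the mean ± SD of 3 libraries per group; the diamond is replicate 5 of the colitic Tmem173iΔmye group. For Ccnd1 the colitic Tmem173iΔmye libraries, at 96.6, 113 and 75.6 CPM, lie above the colitic Tmem173fl/fl libraries, at 48.9, 41.7 and 41.3 CPM, with replicate 2 above every untreated library and the other 2 within the untreated range.

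No replication gene and no mitotic gene was called between the genotypes with DSS. All 34 estimates were positive, with medians of 0.32 for replication and 0.59 for mitosis. Without replicate 5 these medians were -0.01 and 0.21, and 6 of the 13 replication estimates were positive. Over all 45 genes, 10 were higher in Tmem173iΔmye without overlap, against 12% of all tested genes, and without replicate 5 there were 11, against 17.7%. Among the replication genes the highest estimate was that of Cdc6 (log2 fold change 0.91 ± 0.46 (SE), adjusted p = 0.311), and its values of 3.58, 4.54 and 2.45 CPM and 5.92, 3.30 and 10.7 CPM overlapped. Cdt1 had the lowest, at 0.03 ± 0.31. Mcm2, Mcm5, Pcna and Rrm2 stood at 0.45 ± 0.36, 0.31 ± 0.32, 0.65 ± 0.31 and 0.28 ± 0.39 (adjusted p from 0.286 to 0.729).

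Birc5 had the highest mitotic estimate (log2 fold change 1.07 ± 0.49 (SE), adjusted p = 0.269), which rested on replicate 5 with 42.2 CPM, whereas the other colitic libraries of both genotypes lay between 7.49 and 12.6 CPM. Cdc25c had the lowest, at 0.04 ± 0.33. Mki67, Top2a, Cdk1, Ccnb1 and Plk1 stood at 0.46 ± 0.31, 0.86 ± 0.32, 0.68 ± 0.34, 0.55 ± 0.31 and 0.24 ± 0.26 (adjusted p from 0.183 to 0.645). Top2a was higher in Tmem173iΔmye without overlap. Of the further replication and mitotic genes 0 were called by edgeR, with 7 of 40 and 11 of 42 at an unadjusted p under 0.05, against 20.2% of all tested genes, and 2 of 40 and 4 of 42 without replicate 5, against 18.8%.

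Outside the 45 genes, 1 of 24 regulators was called higher in colitic Tmem173iΔmye mice, against 0.822% of all tested genes (2 without replicate 5, against 0.714%). The 1 called with all libraries was Rbl1 (p107), a pocket protein of the DREAM complex (1.07 ± 0.19, adjusted p = 0.0278). Of 12 p53 targets 2 were called lower, against 1.99% of all tested genes, Plk2 (-1.74 ± 0.29, adjusted p = 0.0237) and Phlda3 (-1.50 ± 0.30, adjusted p = 0.0369), the same pair that was called higher with DSS in Tmem173fl/fl mice. The colitic Tmem173fl/fl libraries served in both comparisons, so these are not independent, and without replicate 5 the count of p53 targets called lower was 0. Among the epithelial markers, 1 of 11 was called higher, against 0.822% of all tested genes, the transcription factor Elf3 (1.01 ± 0.21, adjusted p = 0.0450), and 0 without replicate 5, with a median of 0.80 and a summed level of 12612 to 15662 CPM against 6015 to 10348 CPM. Of 8 neutrophil markers 5 were called lower, of 6 fibroblast markers 5 and of 7 erythroid markers 6, again against 1.99%. Of 6 endothelial markers 2 were called lower, of 8 monocyte and macrophage markers 1 and of 9 crypt and stem cell genes 1. Without replicate 5 the counts were 6 neutrophil, 4 fibroblast, 5 erythroid, 1 endothelial, 1 monocyte and macrophage and 1 crypt and stem cell, against 1.39% of all tested genes. B cell markers, from cells that also divide, summed to 42.3 to 235 CPM and 33.5 to 348 CPM, with 0 of 7 called. Relative to the epithelial markers, the mitotic level was -4.97, -4.58 and -5.99 in colitic Tmem173fl/fl and -5.60, -5.80 and -4.75 in colitic Tmem173iΔmye libraries, which overlapped. The part of these cell types in the genotype estimates was not tested.

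The interaction asked whether the DSS effect itself differed between genotypes, with all 12 libraries in 1 fit. Only Ccnd1 was called (log2 fold change 1.21 ± 0.27 (SE), adjusted p = 0.0308, edgeR). Its positive sign means a less negative DSS effect in Tmem173iΔmye mice. The effect was -1.10 ± 0.15 in Tmem173fl/fl and 0.04 ± 0.22, with no fall detected, in Tmem173iΔmye mice. Of all tested genes 0.934% were called higher. The value ranged from 1.07 to 1.40 over the alternatives and the adjusted p from 0.00302 to 0.0873, and the call was lost in 8 of the 12 fits that left out 1 library and with limma. All 21 mitotic estimates were positive, with a median of 0.84, and 10 of them had an unadjusted p under 0.05, against 18.1% of all tested genes, but none passed adjustment. Without replicate 5, 4 of them had an unadjusted p under 0.05, against 16.9%. Birc5 was highest (log2 fold change 1.39 ± 0.54 (SE), adjusted p = 0.198) and Cdc25c lowest (0.10 ± 0.47). Kif23, a kinesin of cell division, came nearest to the threshold among them (log2 fold change 1.12 ± 0.34 (SE), adjusted p = 0.0957).

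The replication genes had a median interaction of 0.37, from Gins2 at -0.02 ± 0.52 to Cdc6 at 0.88 ± 0.52, and 1 of 13 had an unadjusted p under 0.05 (0 without replicate 5). The mitotic median lay 0.46 log2 units above it, and between 0.32 and 0.59 above it when any 1 library was left out. Without replicate 5 the medians were -0.01 for replication and 0.43 for mitosis, with all 21 mitotic estimates still positive and 0 genes of either class called. In the G1-to-S class the estimates ran from Cdk4 at -0.40 ± 0.26 to Ccne2 at 1.32 ± 0.52, with Ccnd2 at 0.98 ± 0.30 (adjusted p = 0.104). Cdkn1a had the highest estimate of the inhibitors, at 0.44 ± 0.25, and Cdkn2c the lowest, at -0.20 ± 0.33. Among the 24 regulators, 1 was called higher, against 0.934% of all tested genes, again Rbl1 (1.27 ± 0.24, adjusted p = 0.0156). Among the 12 p53 targets 1 was called lower, against 1.61% of all tested genes, namely Plk2 (-1.99 ± 0.39, adjusted p = 0.0172). Of 11 epithelial markers 2 were called higher (median 0.78). Of 6 fibroblast markers 4 were called lower, of 6 endothelial markers 3, of 7 erythroid markers 5 and of 8 neutrophil markers 0. The part of these cell types in the interaction estimates was not tested.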

How the data were processed

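Mouse colon RNA was sequenced in 12 libraries, 3 per group, and groups and replicate numbers were taken from the sample titles. The labels do not state that each library is a separate mouse, so p-values measure only the spread between these libraries. The authors deposited counts per gene for each library (whole numbers, not normalised) and FPKM values, which are corrected for gene length and library size. The submitters' processing notes name CASAVA 1.8, fastp, HISAT2 2.0.5, featureCounts 1.5.0-p3 and DESeq2 1.20.0 and the genome build GRCm38. PolyA RNA libraries were made with a NEBNext Ultra RNA kit, and the use of strand in counting was not given in the sources used here. The deposited table also holds the authors' own comparisons (group means, log2 fold changes, p-values and adjusted p-values), which were not used.

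The 45 genes, their classes, the further pathway lists, the marker lists and the motifs were chosen with earlier results of these data known, so their counts are descriptions beside the share over all tested genes. Counts were tested with edgeR 4.0.16 (glmQLFit and glmQLFTest, TMM scaling) in R 4.3.3, for the 24102 of 54532 genes at or above an FPKM of 0.1 in 3 or more libraries. Each fit held only the groups it compared, except that of the interaction, which held all 12 libraries. Calls required an adjusted p (Benjamini-Hochberg) under 0.05 together with a log2 fold change of 1 or more in size. The SE is the log2 fold change divided by the square root of its F statistic. CPM are counts scaled by TMM, and a class level is the mean log2(CPM + 0.5). The edgeR fit was tested on simulated data with known changes. Alternatives were DESeq2 1.42.0, no filter on low values, RLE scaling, limma 3.58.1 on log2(FPKM + 0.1), a replicate block, 1 fit of all 12 libraries, leaving out each library and, chosen after seeing the data, the pancreas marker level as a covariate. Given in full were Mcm2, Mcm5, Pcna, Rrm2, Cdc6, Mki67, Top2a, Cdk1, Ccnb1, Plk1, Birc5, Ccnd1, Ccnd2, Ccnd3, Ccne1, E2f1, Cdkn1a, Cdkn1b and Cdkn2c, with the highest and lowest estimate of each class and up to 2 called genes of each pathway list with the largest change; further genes were named after their values were seen. Promoters came from RefSeq.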

Additional observations from a re-analysis of the deposited data

Results flagged for a closer look

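The interaction of genotype and DSS was past the threshold for 1 of the 45 genes, Ccnd1 (log2 1.21, edgeR adjusted p = 0.0308). DSS changed Ccnd1 by -1.10 ± 0.15 (SE) in Tmem173fl/fl mice, where all 3 colitic libraries lay below all untreated ones, and by 0.04 ± 0.22 in Tmem173iΔmye mice, where the groups overlapped. The adjusted p over the alternatives ran from 0.00302 to 0.0873.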

How the results depend on the processing

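The 34 genes lower with DSS in Tmem173fl/fl mice became 30 to 36 when any 1 library was left out and 34 to 39 under the other settings, and 0 were higher in any of them. Of all tested genes 1833 were called lower there in the main fit, 1843 with DESeq2 and 1822 with limma. In Tmem173iΔmye mice the 11 genes became 19 with DESeq2, 20 without the filter on low values, 0 with limma, 27 with the replicate block, 19 in 1 fit of all 12 libraries, 19 with the pancreas marker level as a covariate, and 0 to 30 when 1 library was left out. The count over all tested genes shifted too. There 144 were called lower in the main fit, 342 with DESeq2 and 11 with limma. Without colitic replicate 1, 2 or 5 the numbers were 52, 98 and 517. The block takes replicate 5 out of each comparison with the colitic Tmem173iΔmye group, since no other library carries its number. In the pairwise comparisons with that group, replicate 3 of the other group drops out in the same way. The count with the block is therefore not separate from that without replicate 5. The 1 gene called between genotypes with DSS, Ccnd1, became 0 with limma and 0 to 1 when 1 library was left out. Of all tested genes 198 were called higher there in the main fit and 17 with limma. For the interaction the count was 2 with DESeq2 (Ccnd1 and Kif23), 0 with limma and 0 to 3 when 1 library was left out, the 3 being Ccnd1, Kif23 and Aurka, and replicate 1 of colitic Tmem173iΔmye the library left out. Of all tested genes 225 were called higher for it in the main fit, 501 with DESeq2, 86 with limma and 708 without that library. Without DSS the count was 0 under every setting. The cause of these shifts was not tested. Correlations between same-numbered libraries ran from -0.172 to 0.202 over 15 pairs, 4 of them over 0.1, which gave no clear sign that the numbers pair the mice. The replicate block changed no count other than that in Tmem173iΔmye mice by more than 1.5 times.

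The replication median minus the mitotic median kept its sign under the settings run, from 0.809 to 0.972 (DSS, Tmem173fl/fl), 0.259 to 0.553 (DSS, Tmem173iΔmye), 0.172 to 0.235 (genotype without DSS), -0.363 to -0.129 (genotype with DSS) and -0.588 to -0.315 (interaction) when 1 library was left out. With the pancreas marker level as a covariate the genotype difference with DSS was -0.0532. For single genes under the alternatives, 1262 values kept their side of the threshold, 23 came to pass it, 45 no longer passed it and 0 passed it in the other direction. With 3 libraries per group, small differences could not be detected.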
